A study of Mus musculus with 8 samples.

Results

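The collagen genes were taken as every protein-coding gene whose symbol is Col, a number, a and a number. In the GENCODE M39 annotation of the mouse genome build GRCm39, 44 of the 56923 genes in each count file met that rule. By their known protein architecture, 11 of the 44 encode fibrillar collagens, 9 fibril-associated collagens, 6 the type IV chains, 6 the type VI (beaded filament) chains, 4 the transmembrane collagens, 3 the short-chain network collagens of types VIII and X, 2 the multiplexins of types XV and XVIII, 1 the anchoring fibril collagen of type VII and 2 other chains.

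Bulk RNA sequencing compared thymic epithelial cells (TECs), all from wild-type mouse thymi late in gestation, in 4 groups of 2 libraries labelled as biological replicates. *In vivo* TECs were sorted as EpCAM-positive cells and lysed at once. For 2D culture, TECs spent 3 days on laminin-coated plates. D3 and D7 organoids grew from sorted TECs in growth factor-reduced Matrigel and were lysed after 3 or 7 days. Both kinds of culture were kept in TEC medium, which contains FGF7 and, in the first 2 days, the ROCK inhibitor thiazovivin. The labels give all 4 groups as WT with no treatment. Each group is a population of sorted or cultured cells, so 2D culture and organoids differ in substrate and, at D7, in time, and these cannot be told apart. Matrigel is itself a basement membrane extract with type IV collagen protein, whereas the libraries counted RNA.

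Collagens are secreted or membrane-bound proteins whose chains wind together into a triple helix, which needs a glycine at regular spacing, the Gly-X-Y repeat. Fibrillar collagens form the load-bearing fibrils that mesenchymal cells deposit, fibril-associated collagens decorate those fibrils, and type IV chains assemble into the sheet of the basement membrane on which epithelia rest. Transmembrane collagens span the plasma membrane once and can be shed from it. In the thymus, basement membranes separate TECs from mesenchyme and vessels.

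The repeat could be read in the coding sequence of every member, and its layout differed between the classes. In the canonical transcript of each gene, a glycine codon (GG followed by any base) was looked for every 3 codons. A series of at least 3 was counted as a run, and a gap between runs as a break. The 11 fibrillar collagens held 1 long run of 216 to 344 triplets with 1 to 4 breaks. The 6 type IV chains carried 22 to 26 breaks, and their longest run was 39 to 66 triplets. *Col9a1*, *Col9a2* and *Col9a3* had the same longest run of 113 triplets and the same 5 breaks, although their coding lengths were 921, 688 and 680 codons. The transmembrane *Col23a1*, with 532 codons, had a longest run of 43 triplets. The first 54 coding bases of the longest run are shown for a fibrillar chain, a type IV chain, the 3 type IX chains and a transmembrane chain that the results turn on, with the GG of each glycine codon in capitals.
Col1a1: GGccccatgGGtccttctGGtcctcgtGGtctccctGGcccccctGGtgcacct
Col4a6: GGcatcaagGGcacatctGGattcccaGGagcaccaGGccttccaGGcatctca
Col9a1: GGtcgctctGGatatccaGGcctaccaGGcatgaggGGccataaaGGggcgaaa
Col9a2: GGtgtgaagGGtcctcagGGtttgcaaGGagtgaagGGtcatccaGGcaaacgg
Col9a3: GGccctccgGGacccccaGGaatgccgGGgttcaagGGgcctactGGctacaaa
Col23a1: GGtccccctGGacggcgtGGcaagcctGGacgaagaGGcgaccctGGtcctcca
All 6 stretches are exonic. In GRCm39 they lie within chr11:94830277-94830567 (plus strand), chrX:139975053-139975106 (minus strand), chr1:24248161-24249471, chr4:120902217-120902355, chr2:180247032-180247537 and chr11:51207789-51416786 (plus strand), in 1 exon for *Col4a6*, 3 for *Col23a1* and 2 for each of the others.

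The libraries held 5084715 to 7612532 counted reads, of which 5067 to 9837 per library fell on collagen genes. Levels are given as CPM, counts scaled to a common library total by TMM factors and not by transcript length. Each test compares the same gene between groups. Sums, shares and ratios over different genes are also given, to be compared between groups. All 8 TEC markers looked for were detected in every library, but their levels moved. Relative to *in vivo*, both libraries were above for 6 and below for 2 (*Foxn1* and *Psmb11*) in 2D culture. At D3 3 were above and 4 below (*Krt8*, *Krt18*, *Foxn1* and *Psmb11*), and at D7 3 were above and 5 below. Here and below, the share of all genes whose libraries separate in this way was not counted. Such counts describe the markers only. *Foxn1* was at 223 and 273 CPM *in vivo* and 8.53 and 4.81 in 2D culture. At D3 it was at 8.77 and 9.63 CPM, and at D7 at 60.5 and 85. *Psmb11*, a proteasome subunit of cortical TECs, was at 520.2 and 553 CPM *in vivo* and 106 and 112 at D7. In 2D culture and at D3 it was at 0.506 to 0.977 CPM. Markers of other cells moved with the groups. The summed level of 10 haematopoietic genes was 585 and 258 CPM *in vivo* against 2.9 to 8.28 in the 6 cultured libraries. For 15 mesenchymal genes, none of them a collagen, the sums were 124 and 94 *in vivo*, 193 and 185 in 2D culture, 37.1 and 26 at D3 and 109.6 and 108 at D7, with *Mfap5* and *Tcf21* at 0 throughout and *Pdgfra* at 0 *in vivo*. In 2D culture *Acta2* and *Fbn1* made up most of that sum, and at D7 *Dcn* (53.4 and 50.9 CPM) and *Fbn1* did. For 8 endothelial genes the sums were 0.675 to 9.4, with *Cdh5* and *Tie1* at 0. The part of these cells in the collagen values was not tested.

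The makeup of the collagen transcripts differed between the groups more than their sum did. Summed over the 44 members the level was 877 and 1022 CPM *in vivo*, 1269 and 1471 in 2D culture, 922 and 1037 at D3 and 1217 and 1222 at D7. Type IV chains gave 60.8% and 56.7% of that sum *in vivo* and 36% to 40.4% in the 6 cultured libraries. Their own summed level was 533 and 579 CPM *in vivo*, 493 and 529 in 2D culture, 355 and 410 at D3 and 455 and 494 at D7. Similar shares therefore did not mean similar levels. Fibril-associated collagens gave 7.56% and 7.8% *in vivo* and 3.72% and 4.73% in 2D culture, but 27.4% and 27.9% at D3 and 36.6% and 32% at D7. The multiplexins, almost all *Col18a1*, gave 10.2% and 13.4% *in vivo*, 35.3% and 37.6% in 2D culture, 18.3% and 17.6% at D3 and 3.25% and 4.41% at D7. Fibrillar collagens stayed within 7.55% to 14.6% across the 8 libraries. In bulk RNA, fewer cells that express a gene and less of its RNA per cell cannot be told apart.

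**Figure D1:**
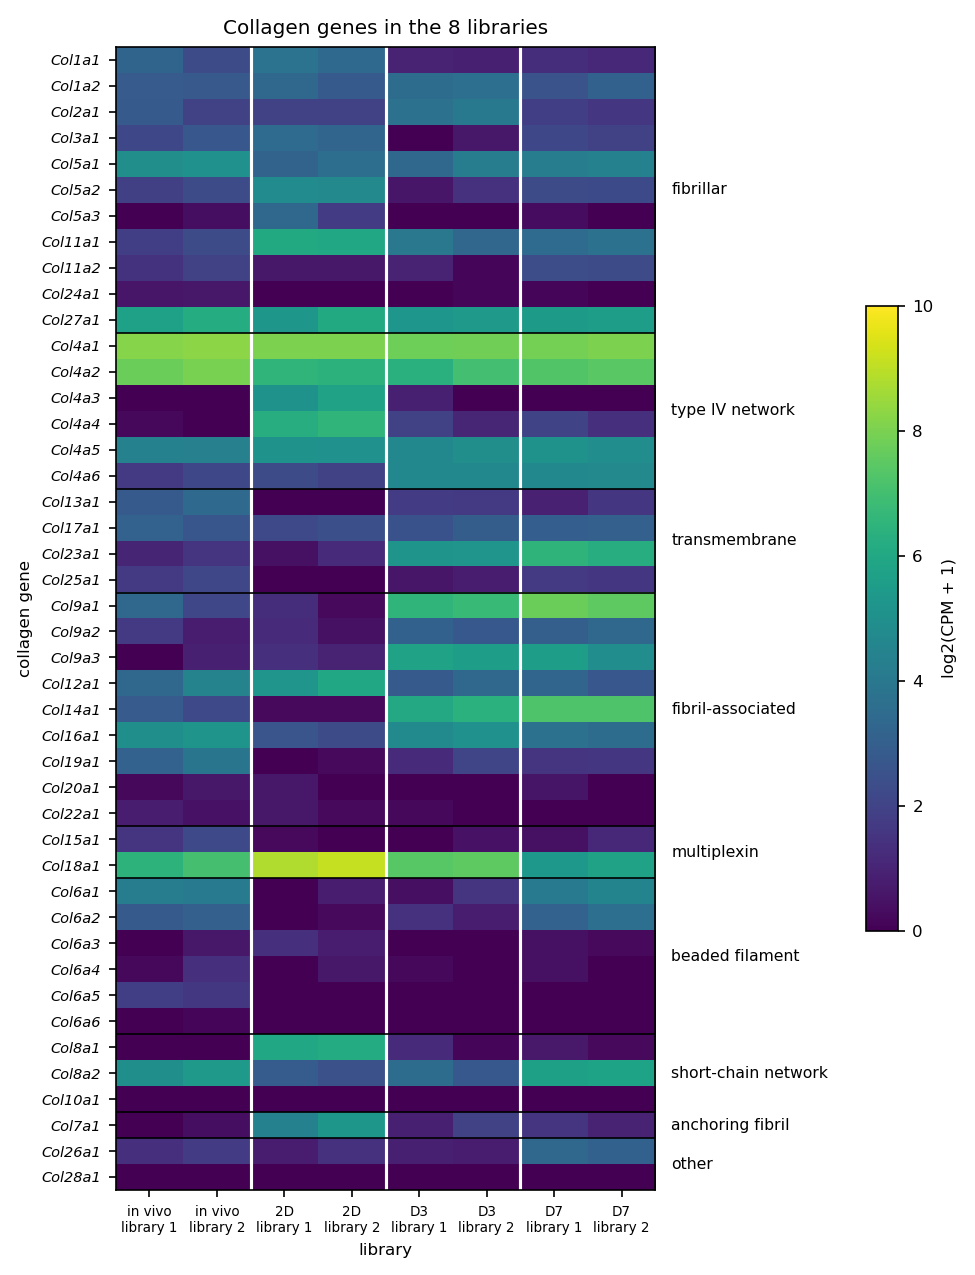
Level of each of the 44 collagen genes, as log2(CPM + 1), in the 8 libraries, in rows grouped by class and columns grouped by condition. *Col4a1* is high in all 8 columns, *Col9a1*, *Col14a1* and *Col23a1* are high in the 4 organoid columns, and *Col8a1*, *Col4a3* and *Col4a4* in the 2 columns of 2D culture.

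Differences were tested with edgeR's quasi-likelihood test, with p-values adjusted over all 14504 genes tested, and a gene was called at an adjusted p of at most 0.05. A log2 fold change is given as the fitted value ± its standard error (SE), and a positive value means higher in the group named first. Where a group had no count, the fold is a bound against a floor of 3 counts over its 2 libraries, and with 1 to 3 counts it is a ratio with an exact 95% interval, and both cover counting error only. Of the 44 members 33 passed a filter that asked for 1 CPM or more in 3 or more of the 8 libraries, and 11 did not. A gene could pass through the groups in which it was high, so the counts that follow describe the members and support nothing on their own. In 2D culture relative to *in vivo* 8 members were called higher and 12 lower, against 19.9% and 21.7% of all genes tested. At D3 relative to *in vivo* 12 members were called higher and 11 lower, against 14.1% and 14% of all genes tested. At D7 relative to *in vivo* 11 members were called higher and 7 lower, against 18% and 16.8% of all genes tested. At D3 relative to 2D culture 11 members were called higher and 9 lower, against 19.3% and 19.1% of all genes tested. At D7 relative to 2D culture 17 members were called higher and 9 lower, against 24.4% and 21.1% of all genes tested. From D3 to D7 10 members were called higher and 3 lower, against 10.9% and 9.91% of all genes tested. Of the 33 members tested, 2 (*Col1a2* and *Col17a1*) were called in none of the 6 comparisons and 3 in all 6. The share of all genes called in none or in all 6 was not counted, so these counts describe the members only. The median log2 fold change of the tested members was -0.71 for 2D culture, -0.42 for D3 and 0.13 for D7, each relative to *in vivo*, where the median over all genes was -0.06, -0.01 and 0.01. Relative to 2D culture it was 0.51 at D3 and 0.96 at D7, against 0.03 and 0.10 over all genes, and from D3 to D7 it was 0.31 against 0.06. With library size as the only scaling the median over all genes moved to -0.24 for 2D culture over *in vivo*, 0.29 for D3 and 0.31 for D7 over 2D culture, and the collagen calls to 7 higher and 13 lower, 12 higher and 9 lower and 17 higher and 8 lower. Over all genes 2221 higher and 3802 lower were then called in 2D culture relative to *in vivo*, 3872 higher and 1886 lower at D3 and 4340 higher and 2315 lower at D7 relative to 2D culture, in place of 2883 higher and 3150 lower, 2798 higher and 2764 lower and 3546 higher and 3059 lower. The 6 comparisons share their groups and are not independent.

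**Figure D2:**
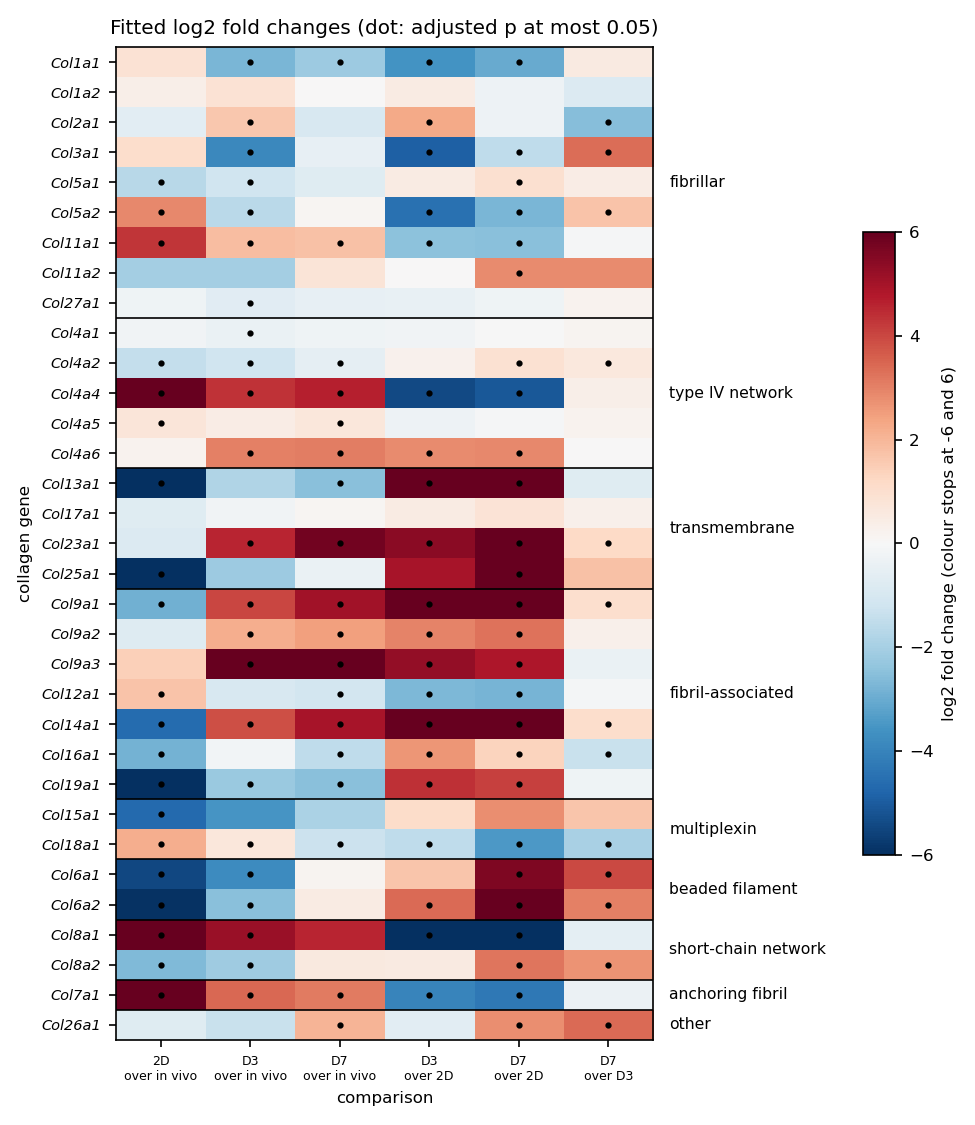
Fitted log2 fold change of the 33 tested collagen genes in the 6 comparisons, from blue (lower) to red (higher), with a dot where edgeR's adjusted p was at most 0.05. Colours stop at -6 and 6, and a fold change against a group at or near 0 counts has no meaningful size. Rows of *Col9a1*, *Col14a1* and *Col23a1* are red in all 4 comparisons of organoids with *in vivo* TECs or 2D culture, and *Col1a2* and *Col17a1* carry no dot.

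The chains encoded by *Col4a1* (ENSMUSG00000031502, chr8:11248423-11362826) and *Col4a2* (ENSMUSG00000031503, chr8:11362471-11499287) together form the most widespread basement membrane trimer. They lie head to head on chromosome 8, on opposite strands. For both genes every cultured library was below both *in vivo* libraries, but the changes of *Col4a1* were smaller. *Col4a1* was at 293 and 302 CPM *in vivo*, 257 and 261 in 2D culture, 222 and 227 at D3 and 239.5 and 263 at D7. Its lowest libraries were those of D3 organoids, and the D3 change relative to *in vivo* was small (log2 fold change -0.42 ± 0.14, adjusted p = 0.0363) and depended on the processing. For *Col4a1*, D3 relative to *in vivo* was not called with no filter on low counts, with library size as the only scaling or without either D3, either D7 or either *in vivo* library (adjusted p from 0.0506 to 0.204). *Col4a2* was at 217 and 254 CPM *in vivo*, 91.1 and 85.9 in 2D culture, 81 and 128 at D3 and 154 and 174 at D7. Every cultured library was below both *in vivo* libraries. The fall was largest in 2D culture (log2 fold change -1.42 ± 0.20, adjusted p = 1.53e-05), followed by D3 (log2 fold change -1.18 ± 0.19, adjusted p = 0.000163). D7 organoids were above 2D culture (log2 fold change 0.89 ± 0.19, adjusted p = 0.00126) and above D3 (log2 fold change 0.65 ± 0.19, adjusted p = 0.0234). The D7 value relative to *in vivo* was smaller (log2 fold change -0.52 ± 0.19, adjusted p = 0.0403). For *Col4a2*, D7 relative to *in vivo* was not called with library size as the only scaling or without either 2D, either D7 or the second *in vivo* library (adjusted p from 0.0536 to 0.204). Likewise, D7 relative to D3 was not called without the first D3 or the second D7 library (adjusted p from 0.162 to 0.228). The ratio of *Col4a1* to *Col4a2* counts within a library was 1.35 and 1.19 *in vivo*, 2.82 and 3.04 in 2D culture, 2.74 and 1.77 at D3 and 1.55 and 1.51 at D7. Every cultured library was above both *in vivo* libraries in that ratio.

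The minor chains *Col4a3* (chr1:82564642-82699780) and *Col4a4* (chr1:82426144-82564800), which with the chain of *Col4a5* make the trimer of the mature kidney and lung basement membrane, were higher in both 2D libraries than in the other 6. *Col4a4* was at 0.173 and 0 CPM *in vivo*, 73.8 and 93.3 in 2D culture, 2.87 and 1.12 at D3 and 3.09 and 1.58 at D7. Its rise in 2D culture rests on 911 counts against 1 (1077-fold higher with a 95% interval of 193 to 42584, adjusted p = 6.26e-10). It was lower in D7 organoids than in 2D culture (log2 fold change -5.08 ± 0.37, adjusted p = 8.56e-09). In the organoids it stood on 25 counts at D3 and 33 at D7. For *Col4a4*, D3 relative to *in vivo* was not called under limma-voom (adjusted p = 0.0524). *Col4a4* gave a log2 fold change for D7 relative to 2D culture of -5.71 without the first D7 library. *Col4a3* was at 33.9 and 53.7 CPM in 2D culture, at 0 counts in all 4 libraries of *in vivo* TECs and D7 organoids, and at 5 counts in 1 of the 2 D3 libraries. It failed the filter, since fewer than 3 libraries reached 1 CPM, and in 2D culture it was at least 188-fold higher, adjusted p = 3.81e-41 with no filter on low counts, relative to *in vivo*. Of the 50-base words in the last 500 bases of its transcripts, 14.1% also occur in the overlapping transcript C430014B12Rik.

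The remaining pair, *Col4a5* (chrX:140258354-140472231) and *Col4a6* (chrX:139948399-140257072), starts 1281 bases apart on the X chromosome, in opposite directions. *Col4a6* was at 2.25 and 3.51 CPM *in vivo* and 3.81 and 2.96 in 2D culture, but at 24.1 and 24.4 at D3 and 24.4 and 25.2 at D7. The 4 organoid libraries were all above the other 4. The rise relative to *in vivo* was called at D3 (log2 fold change 3.04 ± 0.33, adjusted p = 1.68e-06) and D7 (log2 fold change 3.07 ± 0.33, adjusted p = 1.59e-06). Relative to 2D culture it was also called (log2 fold change 2.83 ± 0.33, adjusted p = 2.80e-06 at D3). *Col4a5* was at 20.1 and 19.5 CPM *in vivo*, 34.1 and 32.4 in 2D culture, 24.6 and 29.6 at D3 and 33.5 and 29.2 at D7. All 6 cultured libraries were above both *in vivo* libraries. The rise was called in 2D culture (log2 fold change 0.74 ± 0.22, adjusted p = 0.0117) and at D7 (log2 fold change 0.66 ± 0.22, adjusted p = 0.0261), not at D3 (log2 fold change 0.45 ± 0.22, adjusted p = 0.144). For *Col4a5*, 2D culture relative to *in vivo* was not called with library size as the only scaling or without the first 2D library (adjusted p from 0.0587 to 0.0602). Likewise, D7 relative to *in vivo* was not called by DESeq2's Wald test or without either D7 or either *in vivo* library (adjusted p from 0.0538 to 0.172). In counts, *Col4a5* over *Col4a6* was 8.92 and 5.56 *in vivo* and 8.95 and 10.9 in 2D culture, against 1.02 and 1.21 at D3 and 1.38 and 1.16 at D7. Of the 5 type IV chains tested, relative to *in vivo*, 2 were called higher and 1 lower in 2D culture, 2 were called higher and 2 lower at D3 and 3 were called higher and 1 lower at D7, against 19.9% and 21.7%, 14.1% and 14% and 18% and 16.8% of all genes.

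**Figure D3:**
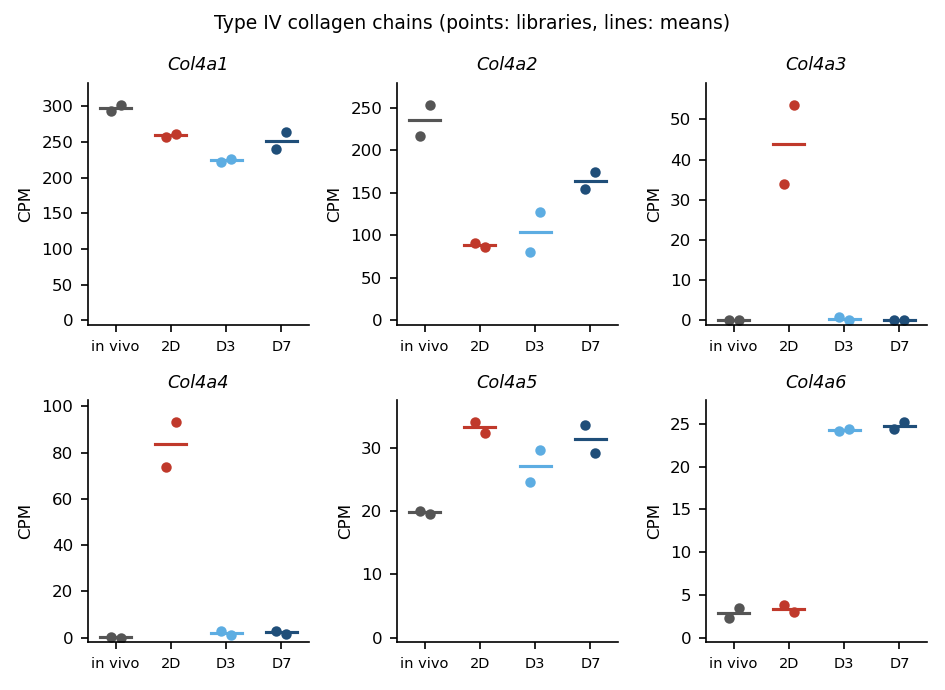
CPM of the 6 type IV chains by group on linear axes from 0, with a point per library and a line at the mean of the 2 libraries. *Col4a3* and *Col4a4* stand out in 2D culture, *Col4a6* is at 24.1 to 25.2 CPM in the 4 organoid libraries, and *Col4a2* is highest *in vivo*.

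Among the fibrillar collagens, *Col11a1* and *Col5a2* rose in 2D culture, and 5 of the 9 tested chains were lower in D3 organoids than *in vivo*. *Col11a1* (ENSMUSG00000027966, chr3:113824134-114014367), a minor chain that nucleates cartilage fibrils, was at 2.6 and 3.93 CPM *in vivo*, 66.2 and 63.5 in 2D culture, 15.2 and 8.93 at D3 and 10.3 and 12.6 at D7. Both 2D libraries were above all others and all organoid libraries above *in vivo*. The change was called in 2D culture (log2 fold change 4.28 ± 0.32, adjusted p = 9.51e-09), at D3 (log2 fold change 1.84 ± 0.34, adjusted p = 0.000438) and at D7 (log2 fold change 1.77 ± 0.34, adjusted p = 0.000579). *Col5a2*, a minor chain that nucleates fibrils in most connective tissue, was at 2.77 and 4.07 CPM *in vivo*, 27 and 24.8 in 2D culture, 0.506 and 1.67 at D3 and 3.84 and 3.75 at D7. It rose in 2D culture (log2 fold change 2.90 ± 0.43, adjusted p = 3.30e-05). It was much lower at D3 than in 2D culture (log2 fold change -4.50 ± 0.49, adjusted p = 1.32e-06). Its fall at D3 relative to *in vivo* (log2 fold change -1.60 ± 0.53, adjusted p = 0.0331) and its rise from D3 to D7 (log2 fold change 1.73 ± 0.53, adjusted p = 0.0278) were smaller. For *Col5a2*, D3 relative to *in vivo* was not called under limma-voom or without either 2D, the first D3 or the second *in vivo* library (adjusted p from 0.0593 to 0.217). Likewise, D7 relative to D3 was not called under limma-voom or without either 2D, the first D3 or either D7 library (adjusted p from 0.0529 to 0.191). *Col5a2* gave a log2 fold change for D3 relative to 2D culture of -5.61 without the second D3 library, and for D3 relative to *in vivo* of -2.66 without the second D3 library, and for D7 relative to D3 of 2.79 without the second D3 library. *Col5a1*, which encodes a partner chain, was at 29.8 and 32.7 CPM *in vivo*, 8.16 and 11.3 in 2D culture, 9.45 and 18 at D3 and 17.7 and 20.3 at D7. All 6 cultured libraries lay below both *in vivo* libraries. The fall was called in 2D culture (log2 fold change -1.69 ± 0.31, adjusted p = 0.000297) and at D3 (log2 fold change -1.18 ± 0.30, adjusted p = 0.00601), whereas D7 missed the threshold (log2 fold change -0.73 ± 0.29, adjusted p = 0.0625). For *Col5a1*, D3 relative to *in vivo* was not called without the first D3 library (adjusted p = 0.0905). By contrast, D7 relative to *in vivo* was called in a fit of the 6 libraries other than D3, under limma-voom, with the replicate block and without either D3 library (adjusted p from 0.0235 to 0.0398). *Col5a3* failed the filter, with 9.43 and 2.41 CPM in 2D culture and at most 2 counts in any other library (38.4-fold higher with a 95% interval of 10.2 to 324, adjusted p = 0.000467 with no filter on low counts, relative to *in vivo*). Of the 15 mesenchymal genes, both 2D libraries were above both *in vivo* libraries for 3 (*Twist1*, *Fbn1* and *Acta2*) and below for 8 (*Pdgfrb*, *Dcn*, *Lum*, *Thy1*, *Twist2*, *Postn*, *Dpt* and *Rgs5*). Some of the 15 had few counts, and the share of all genes that separate in this way was not counted. The part of the mesenchymal genes in these values was not tested.

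The chains of types I and III, the bulk of connective tissue fibrils, did not exceed 12.9 CPM in any library. *Col1a1* was at 8.31 and 4.07 CPM *in vivo*, 12.9 and 9.63 in 2D culture, 1.01 and 0.837 at D3 and 1.48 and 1.18 at D7. The 4 organoid libraries were below the other 4. It fell relative to *in vivo* at D3 (log2 fold change -2.72 ± 0.62, adjusted p = 0.00297) and D7 (log2 fold change -2.17 ± 0.59, adjusted p = 0.0086). Relative to 2D culture it fell at D3 as well (log2 fold change -3.59 ± 0.61, adjusted p = 0.000176). *Col1a2*, whose chain pairs with that of *Col1a1*, was at 6.4 and 5.89 CPM *in vivo*, 9.43 and 6.11 in 2D culture, 10.5 and 11.7 at D3 and 4.95 and 7.69 at D7. No comparison was called for it. The ratio of *Col1a2* to *Col1a1* counts was 0.771 and 1.45 *in vivo* and 0.732 and 0.635 in 2D culture, against 10.3 and 14 at D3 and 3.33 and 6.5 at D7. In the organoids these ratios rest on 39 to 84 counts of *Col1a2* and 6 to 12 of *Col1a1* per library. For *Col1a1*, D7 relative to *in vivo* was not called without the second D7 or the first *in vivo* library (adjusted p from 0.0747 to 0.0887). *Col1a1* gave a log2 fold change for D3 relative to *in vivo* of -2.13 without the first *in vivo* library, and for D7 relative to *in vivo* of -1.59 without the first *in vivo* library. *Col3a1* was at 3.46 and 5.61 CPM *in vivo*, 10.2 and 8.7 in 2D culture, 0 and 0.558 at D3 and 3.46 and 2.96 at D7. It was lower at D3 than *in vivo* (log2 fold change -3.84 ± 0.83, adjusted p = 0.00188). It was higher at D7 than at D3 (log2 fold change 3.34 ± 0.84, adjusted p = 0.00946). For *Col3a1*, D7 relative to D3 was not called without the first D3 library (adjusted p = 0.0705). *Col3a1* gave a log2 fold change for D3 relative to *in vivo* of -2.99 without the first D3 library and -7.79 without the second D3 library (against no count), and for D7 relative to D3 of 2.49 without the first D3 library and 7.29 without the second D3 library (against no count). The summed mesenchymal genes were also lowest at D3. Both D3 libraries were above both *in vivo* libraries for 2 of the 15 (*Twist1* and *Fbn1*) and below for 8 (*Pdgfrb*, *Dcn*, *Thy1*, *Prrx1*, *Twist2*, *Postn*, *Dpt* and *Rgs5*), and their part in this was not tested.

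The cartilage chain *Col2a1* was at 6.06 and 2.95 CPM *in vivo*, 2.9 and 2.78 in 2D culture, 12.3 and 15.3 at D3 and 2.6 and 1.97 at D7. Both D3 libraries were above the other 6. The difference was called relative to *in vivo* (log2 fold change 1.63 ± 0.47, adjusted p = 0.0151), 2D culture (log2 fold change 2.28 ± 0.50, adjusted p = 0.00149) and D7 (log2 fold change -2.57 ± 0.50, adjusted p = 0.00169, for D7 over D3). For *Col2a1*, D3 relative to *in vivo* was not called without the second D3 or the second *in vivo* library (adjusted p from 0.0876 to 0.0915). *Col2a1* gave a log2 fold change for D3 relative to *in vivo* of 2.22 without the first *in vivo* library. *Col11a2*, another cartilage chain, was at 1.73 and 2.95 CPM *in vivo*, 0.544 and 0.555 in 2D culture, 1.01 and 0.14 at D3 and 4.08 and 3.94 at D7. It was called only between D7 and 2D culture (log2 fold change 2.82 ± 1.0, adjusted p = 0.0287). For *Col11a2*, D7 relative to 2D culture was not called without either 2D or either D7 library (adjusted p from 0.101 to 0.113). In turn, D7 relative to D3 was called by DESeq2's Wald test, under limma-voom, with no filter on low counts and without the first D3 or either *in vivo* library (adjusted p from 0.0263 to 0.0468). *Col27a1*, an early-branching fibrillar collagen, was at 51.7 and 71.7 CPM *in vivo*, 38.1 and 67 in 2D culture, 37.1 and 40.7 at D3 and 43.2 and 46.1 at D7. The groups overlapped in part. Its single call, at D3 relative to *in vivo* (log2 fold change -0.67 ± 0.24, adjusted p = 0.0469), depended on the processing. For *Col27a1*, D3 relative to *in vivo* was not called with DESeq2's size factors, by DESeq2's Wald test, with library size as the only scaling or without either D3, either D7 or the second *in vivo* library (adjusted p from 0.0508 to 0.31). *Col24a1* failed the filter and reached at most 0.561 CPM. Of the 9 fibrillar chains tested, 2 were called higher and 1 lower in 2D culture, 2 were called higher and 5 lower at D3 and 1 was called higher and 1 lower at D7, each relative to *in vivo*, against 19.9% and 21.7%, 14.1% and 14% and 18% and 16.8% of all genes. Their median log2 fold change was 0.34, -1.18 and -0.47.

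Among the 4 transmembrane collagens, *Col23a1* (ENSMUSG00000063564, chr11:51180566-51474745) was higher in organoids. It was at 1.04 and 1.82 CPM *in vivo* and 0.363 and 1.3 in 2D culture, at 35.4 and 36 at D3 and 89.1 and 74.5 at D7. Every organoid library was far above the other 4, and both D7 libraries were above both at D3. The change was called at D3 (log2 fold change 4.58 ± 0.34, adjusted p = 1.60e-08) and D7 (log2 fold change 5.78 ± 0.33, adjusted p = 9.29e-10) relative to *in vivo*. So was the step from D3 to D7 (log2 fold change 1.20 ± 0.23, adjusted p = 0.00171). *Col13a1*, a collagen of cell-matrix and neuromuscular junctions, was at 6.06 and 9.82 CPM *in vivo*, 2.36 and 2.23 at D3 and 0.866 and 1.97 at D7, with no count in 2D culture. The *in vivo* libraries were the highest, and 105 counts there against 0 in 2D culture made it at least 29.6-fold lower in 2D culture, adjusted p = 8.88e-05. At D7 it was lower than *in vivo* (log2 fold change -2.53 ± 0.74, adjusted p = 0.0141). For *Col13a1*, D7 relative to *in vivo* was not called without the first D7 or the second *in vivo* library (adjusted p from 0.0796 to 0.151). *Col13a1* gave a log2 fold change for D7 relative to *in vivo* of -3.17 without the second D7 library. *Col25a1*, best known from nerve and muscle, was at 2.25 and 3.37 CPM *in vivo*, 0.506 and 0.698 at D3 and 2.23 and 1.97 at D7. It again had no count in 2D culture (at least 10.4-fold lower, adjusted p = 0.00317, relative to *in vivo*). *Col17a1*, the hemidesmosome collagen of basal epithelial cells, varied from 3.63 to 7.79 CPM over the 8 libraries and was called in no comparison. The 2D libraries were its lowest without passing the test (log2 fold change -0.71 ± 0.47, adjusted p = 0.242). *Col13a1* and *Col25a1* were among the 9 tested members highest *in vivo*, where the summed haematopoietic markers were highest too. Those sums were 585 and 258 CPM in the first and second *in vivo* library. Both collagens were higher in the second library, but 2 libraries cannot show whether such values go together. The part of other cells in their values was not tested.

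Of the 7 fibril-associated members tested, 1 was called higher and 4 lower in 2D culture, 4 were called higher and 1 lower at D3 and 4 were called higher and 3 lower at D7 relative to *in vivo*, where 19.9% and 21.7%, 14.1% and 14% and 18% and 16.8% of all genes were. At D3 and D7 3 of the 4 that were higher were chains of 1 trimer. The type IX chains *Col9a1* (ENSMUSG00000026147, chr1:24216691-24291765), *Col9a2* (ENSMUSG00000028626, chr4:120896582-120912523) and *Col9a3* (ENSMUSG00000027570, chr2:180239583-180264063) are partners in 1 heterotrimer on cartilage fibrils. They lie on different chromosomes and were all higher in both organoid groups. *Col9a1* was at 9.34 and 3.37 CPM *in vivo*, 1.45 and 0.185 in 2D culture, 93.5 and 109 at D3 and 217 and 185 at D7. No library of a group overlapped with those of another. *Col9a1* was lower in 2D culture than *in vivo* (log2 fold change -2.88 ± 0.59, adjusted p = 0.000812) and higher at D3 (log2 fold change 4.02 ± 0.33, adjusted p = 6.03e-08) and D7 (log2 fold change 5.02 ± 0.34, adjusted p = 5.53e-09). The further rise from D3 to D7 (log2 fold change 0.99 ± 0.26, adjusted p = 0.0124) was less firm. For *Col9a1*, D7 relative to D3 was not called by DESeq2's Wald test or without either D3 or the first D7 library (adjusted p from 0.0617 to 0.349). *Col9a1* gave a log2 fold change for 2D culture relative to *in vivo* of -4.92 without the first 2D library, -2.07 without the second 2D library, -2.01 without the first *in vivo* library and -3.47 without the second *in vivo* library, and for D3 relative to *in vivo* of 4.89 without the first *in vivo* library and 3.44 without the second *in vivo* library, and for D7 relative to *in vivo* of 5.88 without the first *in vivo* library and 4.42 without the second *in vivo* library. *Col9a3* was at 0 and 0.842 CPM *in vivo*, 1.63 and 0.926 in 2D culture, 52.8 and 47.6 at D3 and 46.1 and 28.8 at D7. Its organoid libraries were far above the rest, at D3 (log2 fold change 6.70 ± 0.50, adjusted p = 1.86e-08) and at D7 (log2 fold change 6.29 ± 0.51, adjusted p = 5.15e-08) relative to *in vivo*. Both D7 libraries were below both at D3 without passing the test (log2 fold change -0.41 ± 0.30, adjusted p = 0.37). The comparisons with *in vivo* rest on 6 *in vivo* counts, all in the second library. *Col9a3* gave a log2 fold change for D3 relative to *in vivo* of 5.85 without the first *in vivo* library and 11.27 without the second *in vivo* library (against no count), and for D7 relative to *in vivo* of 5.44 without the first *in vivo* library and 10.85 without the second *in vivo* library (against no count). The ends of *Col9a3* and *Tcfl5* overlap on opposite strands, and 19.4% of its 50-base words are shared with that gene, which had 0 to 6 counts per library. *Col9a2* was at 2.25 and 0.702 CPM *in vivo*, 1.27 and 0.37 in 2D culture, 7.59 and 5.72 at D3 and 7.05 and 9.27 at D7. It was called higher at D3 (log2 fold change 2.19 ± 0.66, adjusted p = 0.0197) and D7 (log2 fold change 2.48 ± 0.66, adjusted p = 0.0077). For *Col9a2*, D3 relative to *in vivo* was not called without the first D3 or the second *in vivo* library (adjusted p from 0.102 to 0.112). Likewise, D7 relative to *in vivo* was not called without the second D7 or the second *in vivo* library (adjusted p from 0.0504 to 0.0756). *Col9a2* gave a log2 fold change for D3 relative to *in vivo* of 3.20 without the first *in vivo* library and 1.56 without the second *in vivo* library, and for D7 relative to *in vivo* of 3.48 without the first *in vivo* library and 1.83 without the second *in vivo* library.

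*Col14a1* (ENSMUSG00000022371, chr15:55171140-55384199), which regulates fibril diameter in tendon and skin, followed the same order as *Col9a1*. It was at 6.4 and 3.65 CPM *in vivo*, 0.181 and 0.185 in 2D culture, 65 and 81.9 at D3 and 152 and 151 at D7. All 4 groups were separate. It was higher than *in vivo* at D3 (log2 fold change 3.89 ± 0.25, adjusted p = 3.24e-09) and D7 (log2 fold change 4.93 ± 0.26, adjusted p = 2.79e-10). It was also higher at D7 than at D3 (log2 fold change 1.04 ± 0.20, adjusted p = 0.00144). In 2D culture it had 2 counts in all, against 63 *in vivo* (26.6-fold lower with a 95% interval of 7.08 to 225, adjusted p = 8.82e-06, relative to *in vivo*). Of the 15 mesenchymal genes 8 were lower in both D3 libraries than in both *in vivo* libraries and 2 higher. At D7, where *Col14a1* was highest, 6 were higher than *in vivo* (*Pdgfra*, *Dcn*, *Lum*, *Twist1*, *Fbn1* and *Acta2*) and 7 lower. The part of these genes' cells in the values of *Col14a1* was not tested.

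*Col16a1*, found near basement membranes and at fibril surfaces, was at 30.5 and 35.1 CPM *in vivo*, 5.26 and 3.89 in 2D culture, 26 and 32.5 at D3 and 12.2 and 10.5 at D7. *In vivo* and D3 libraries overlapped. Those of 2D culture were the lowest (log2 fold change -2.84 ± 0.29, adjusted p = 4.76e-07), and D7 was between (log2 fold change -1.53 ± 0.26, adjusted p = 0.000204, relative to *in vivo*). *Col12a1*, a collagen of tissues under tension, was instead highest in 2D culture, at 36.3 and 63.7 CPM, against 9.0 and 21.2 *in vivo*, 6.07 and 9.35 at D3 and 8.54 and 5.52 at D7. Its rise in 2D culture (log2 fold change 1.71 ± 0.36, adjusted p = 0.00114) was called, as was its lower value at D7 (log2 fold change -1.09 ± 0.40, adjusted p = 0.0427). For *Col12a1*, D7 relative to *in vivo* was not called in a fit of the 6 libraries other than D3, under limma-voom, with library size as the only scaling or without the second 2D, either D3, the second D7 or the second *in vivo* library (adjusted p from 0.0512 to 0.589). *Col12a1* gave a log2 fold change for 2D culture relative to *in vivo* of 2.47 without the second *in vivo* library, and for D7 relative to *in vivo* of -0.33 without the second *in vivo* library. *Col19a1*, a collagen of basement membrane zones in muscle and brain, was at 7.96 and 13.9 CPM *in vivo*, at 1 count over both 2D libraries, at 1.35 and 3.21 CPM at D3 and 1.86 and 1.97 at D7. It was lower than *in vivo* in 2D culture (123-fold lower with a 95% interval of 21.7 to 4878, adjusted p = 3.58e-05). It was also lower at D3 (log2 fold change -2.24 ± 0.63, adjusted p = 0.0131) and D7 (log2 fold change -2.51 ± 0.65, adjusted p = 0.0062). It lies 5006 bases from *Col9a1* on chromosome 1, tail to tail, and moved in the opposite direction in organoids. For *Col19a1*, D3 relative to *in vivo* was not called without the first D3 or the second *in vivo* library (adjusted p from 0.105 to 0.131). Likewise, D7 relative to *in vivo* was not called without either D7 or the second *in vivo* library (adjusted p from 0.0565 to 0.0688). *Col19a1* gave a log2 fold change for D3 relative to *in vivo* of -2.94 without the second D3 library. Of the 7 fibril-associated members tested, relative to 2D culture, 6 were called higher and 1 lower at D3 and 6 were called higher and 1 lower at D7, against 19.3% and 19.1% and 24.4% and 21.1% of all genes.

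**Figure D4:**
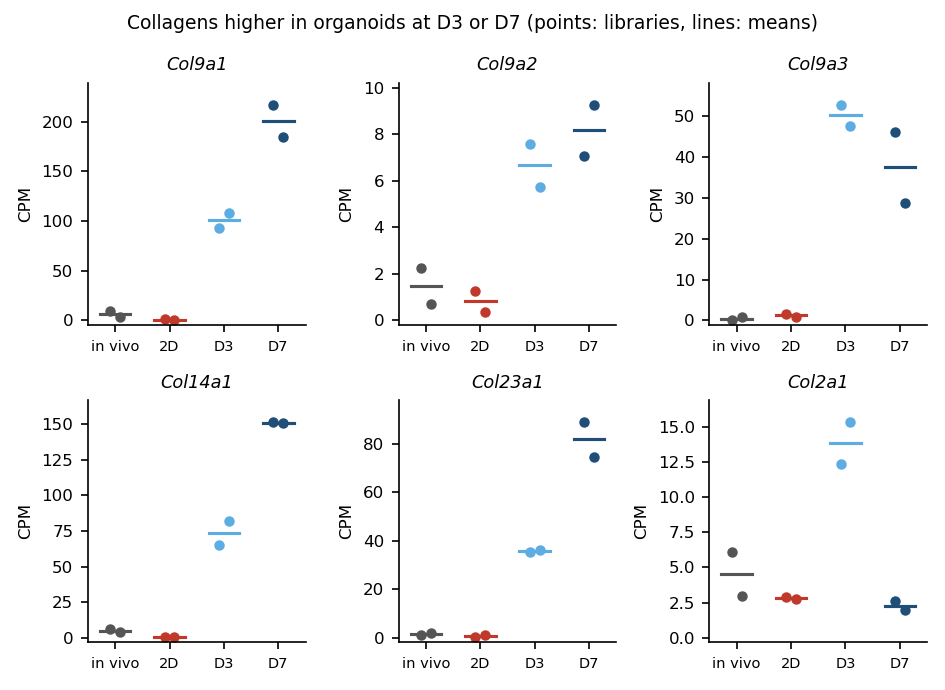
CPM by group for 6 collagens that were higher at D3 or D7, on linear axes from 0, with a point per library and a line at the mean. *Col9a1*, *Col14a1* and *Col23a1* climb from D3 to D7, and *Col9a2* overlaps between the 2 days. *Col9a3* is lower in both D7 libraries than in both at D3, without a call, and *Col2a1* is high at D3 alone.

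To set members that moved alike side by side, the 150 bases before the annotated start of the canonical transcript were read from GRCm39 for 4 genes raised in organoids and 2 raised in 2D culture. Capitals mark the GC box GGGCGG and the TATA box TATAAA, searched on both strands.
Col9a1: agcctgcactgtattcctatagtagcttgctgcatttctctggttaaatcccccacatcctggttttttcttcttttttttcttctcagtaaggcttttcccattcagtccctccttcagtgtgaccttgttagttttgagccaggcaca
Col9a3: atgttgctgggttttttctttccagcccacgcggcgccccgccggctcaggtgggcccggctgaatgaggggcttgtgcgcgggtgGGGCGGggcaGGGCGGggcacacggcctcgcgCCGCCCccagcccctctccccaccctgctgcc
Col14a1: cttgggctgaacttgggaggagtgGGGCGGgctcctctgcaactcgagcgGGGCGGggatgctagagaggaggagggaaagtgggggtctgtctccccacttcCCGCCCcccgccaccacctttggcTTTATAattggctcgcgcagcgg
Col23a1: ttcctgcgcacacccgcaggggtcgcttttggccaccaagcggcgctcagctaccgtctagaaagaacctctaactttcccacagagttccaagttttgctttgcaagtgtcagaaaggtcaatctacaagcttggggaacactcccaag
Col8a1: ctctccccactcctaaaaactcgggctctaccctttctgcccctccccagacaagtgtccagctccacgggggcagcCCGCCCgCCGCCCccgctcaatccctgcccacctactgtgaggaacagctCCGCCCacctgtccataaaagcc
Col11a1: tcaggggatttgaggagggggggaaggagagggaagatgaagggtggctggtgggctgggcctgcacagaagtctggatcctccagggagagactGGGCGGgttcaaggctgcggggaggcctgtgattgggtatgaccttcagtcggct
These windows are chr1:24216541-24216690, chr2:180239865-180240014, chr15:55170990-55171139, chr11:51180416-51180565 and chr3:113823984-113824133 on the plus strand and chr16:57575101-57575250 on the minus strand, and none holds an annotated exon of another gene. In windows of that length GGGCGG occurred in 20 of the 44 members and 32.6% of all 21770 protein-coding genes, TATAAA in 6 members and 7.29% of genes, the AP-1 motif TGANTCA in 0 members and 3.61%, and the SOX motif ACAAAG in 1 member (*Col4a2*) and 9.03%. Of the 4 organoid genes *Col9a3* and *Col14a1* held GC boxes and *Col9a1* and *Col23a1* held none of the 4 motifs.

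*Col8a1*, *Col7a1* and *Col18a1*, from the short-chain, anchoring fibril and multiplexin classes, were highest in 2D culture. *Col8a1* (ENSMUSG00000068196, chr16:57444621-57575100), a network collagen of vessels and cornea, had no count *in vivo*, 62.2 and 70.4 CPM in 2D culture, 1.35 and 0.14 at D3 and 0.619 and 0.197 at D7. In 2D culture it was at least 285-fold higher than *in vivo* (adjusted p = 5.27e-09). It was lower at D3 (log2 fold change -6.54 ± 0.49, adjusted p = 2.48e-08) and D7 (log2 fold change -7.13 ± 0.52, adjusted p = 1.41e-08) than in 2D culture. *Col8a1* gave a log2 fold change for D3 relative to 2D culture of -5.58 without the second D3 library, and for D7 relative to 2D culture of -8.25 without the first D7 library. Its sister chain *Col8a2* (chr4:126180559-126208123) was lowest in 2D culture and at D3, at 30.3 and 40.6 CPM *in vivo*, 6.53 and 4.63 in 2D culture, 10.6 and 5.72 at D3 and 50.2 and 55.2 at D7. *Col8a2* was lower than *in vivo* in 2D culture (log2 fold change -2.67 ± 0.31, adjusted p = 2.32e-06) and at D3 (log2 fold change -2.14 ± 0.29, adjusted p = 2.45e-05). Both D7 libraries were above both *in vivo* libraries without passing the test (log2 fold change 0.56 ± 0.26, adjusted p = 0.104). For *Col8a2*, D7 relative to *in vivo* was called under limma-voom (adjusted p = 0.0362). *Col7a1*, the collagen that anchors epidermis to dermis, stood at 0 and 0.281 CPM *in vivo*, 20.3 and 37.8 in 2D culture, 0.844 and 2.79 at D3 and 1.86 and 0.986 at D7. In 2D culture it was 187-fold higher than *in vivo*, where it had 2 counts, with a 95% interval of 51.3 to 1549, adjusted p = 6.90e-07. For *Col7a1*, D3 relative to *in vivo* was not called under limma-voom or without the second D3 or the first *in vivo* library (adjusted p from 0.0856 to 0.196). Likewise, D7 relative to *in vivo* was not called under limma-voom or without the first D7 or the first *in vivo* library (adjusted p from 0.136 to 0.174).

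*Col18a1* (ENSMUSG00000001435, chr10:76888012-77002390), a basement membrane proteoglycan that yields endostatin, was at 87.2 and 133 CPM *in vivo*, 448 and 553 in 2D culture, 168 and 182 at D3 and 39.2 and 52.6 at D7. The 4 groups did not overlap, and *Col18a1* was one of the 3 members called in all 6 comparisons. It was higher in 2D culture (log2 fold change 2.18 ± 0.20, adjusted p = 1.47e-07) and D3 (log2 fold change 0.66 ± 0.20, adjusted p = 0.0185) and lower at D7 (log2 fold change -1.28 ± 0.21, adjusted p = 0.000135) than *in vivo*. For *Col18a1*, D3 relative to *in vivo* was not called without either D3 or the first *in vivo* library (adjusted p from 0.0506 to 0.222). *Col15a1*, the other multiplexin, was at 1.9 and 3.65 CPM *in vivo* and at 0 to 1.18 in the cultured libraries. It was called lower in 2D culture (31.3-fold lower with a 95% interval of 5.28 to 1269, adjusted p = 0.0204, relative to *in vivo*). For *Col15a1*, 2D culture relative to *in vivo* was not called without either 2D library (adjusted p from 0.0519 to 0.115).

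Of the 6 type VI chains, which form beaded microfilaments next to basement membranes, *Col6a1* and *Col6a2* passed the filter and rose from D3 to D7. *Col6a1* (chr10:76543440-76562283) was at 17.3 and 16.1 CPM *in vivo*, 0 and 0.741 in 2D culture, 0.337 and 1.95 at D3 and 16 and 21.7 at D7. Libraries of *in vivo* TECs and D7 organoids overlapped and lay apart from the other 4. *Col6a1* fell in 2D culture (log2 fold change -5.44 ± 0.71, adjusted p = 8.30e-06) and at D3 (log2 fold change -3.78 ± 0.57, adjusted p = 7.02e-05). It rose from D3 to D7 (log2 fold change 3.95 ± 0.57, adjusted p = 0.000173). *Col6a1* gave a log2 fold change for 2D culture relative to *in vivo* of -4.46 without the first 2D library and -9.74 without the second 2D library (against no count), and for D3 relative to *in vivo* of -3.09 without the first D3 library and -5.49 without the second D3 library, and for D7 relative to D3 of 3.25 without the first D3 library and 5.65 without the second D3 library. *Col6a2*, 83890 bases away on the same strand, was at 6.06 and 7.44 CPM *in vivo*, 0 and 0.185 in 2D culture, 1.69 and 0.698 at D3 and 7.92 and 11.4 at D7. It rose from D3 to D7 (log2 fold change 3.02 ± 0.63, adjusted p = 0.00288). Both D7 libraries were above both *in vivo* libraries without a call (log2 fold change 0.51 ± 0.54, adjusted p = 0.511). For *Col6a2*, D7 relative to D3 was not called without the second D7 library (adjusted p = 0.0587). *Col6a2* gave a log2 fold change for D7 relative to D3 of 3.75 without the first D3 library and 2.43 without the second D3 library. From D3 to D7 8 of the 15 mesenchymal genes were higher in both D7 libraries (*Pdgfra*, *Dcn*, *Lum*, *Thy1*, *Postn*, *Fbn1*, *Acta2* and *Rgs5*) and 1 lower (*Twist1*), and the part of these markers in the collagen values was not tested. The third chain of the common type VI trimer, *Col6a3*, failed the filter, with 0 to 1.63 CPM. *Col6a5* had 2.6 and 2.11 CPM *in vivo* and no count in the 6 cultured libraries (at least 8.46-fold lower, adjusted p = 0.0247 with no filter on low counts, relative to *in vivo*). *Col6a4* reached 0 to 1.54 CPM and *Col6a6* 0 to 0.14 CPM.

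**Figure D5:**
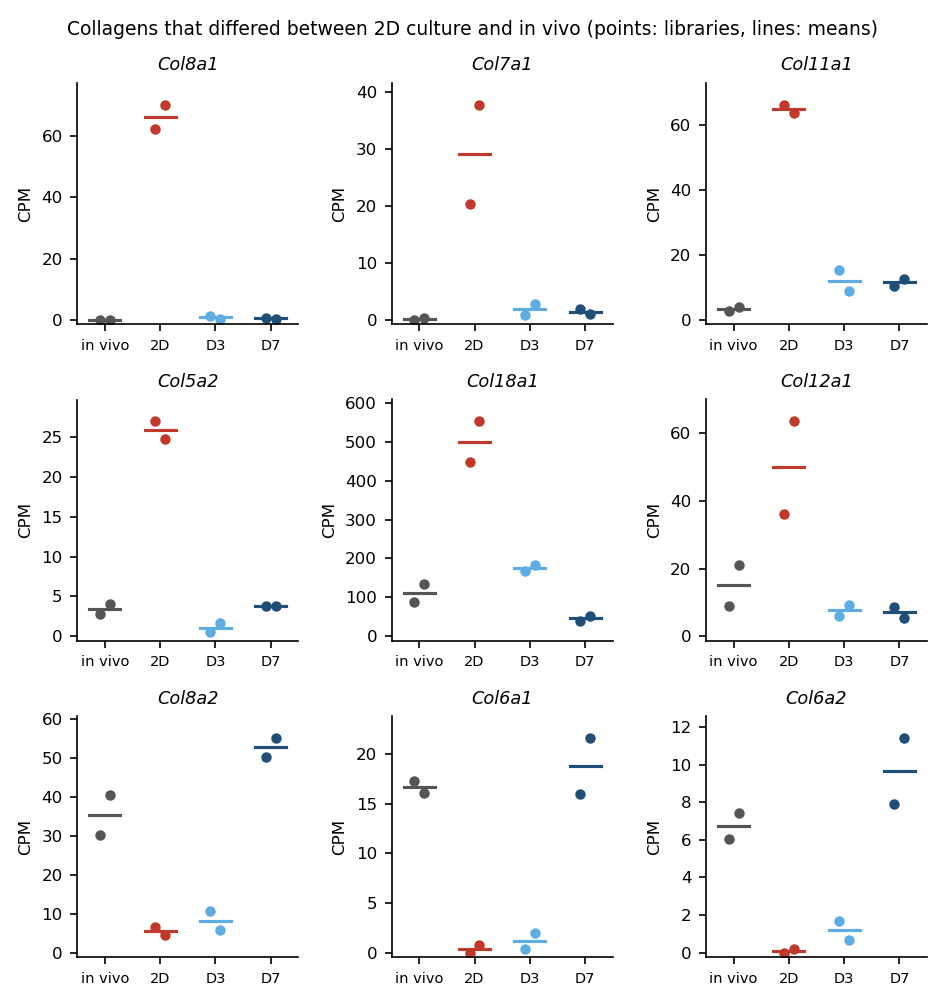
CPM by group for 9 collagens that differed between 2D culture and *in vivo* TECs, on linear axes from 0, with a point per library and a line at the mean. The first 6 panels are highest in 2D culture, and *Col8a2*, *Col6a1* and *Col6a2* are high *in vivo* and at D7.

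The other members were low. *Col26a1*, a small secreted collagen, was at 1.56 and 2.39 CPM *in vivo*, 0.726 and 1.67 in 2D culture, 0.844 and 0.698 at D3 and 9.16 and 7.49 at D7. Its D7 libraries were above all others (log2 fold change 3.41 ± 0.74, adjusted p = 0.00353 from D3 to D7). For *Col26a1*, D7 relative to D3 was not called without the first D7 library (adjusted p = 0.0529). *Col20a1* and *Col22a1*, both fibril-associated, did not exceed 0.561 and 0.692 CPM. *Col10a1*, the hypertrophic cartilage chain, and *Col28a1* had no count in any of the 8 libraries. *Col10a1* lies within *Nt5dc1*, with which 66.5% of its 50-base words are shared and which had 21 to 73 counts per library, so reads of the 2 genes may not have been told apart. Altogether 25 of the 44 members reached a mean of 10 CPM in at least 1 group. Among the 33 tested members the highest group was D7 organoids for 11, 2D culture for 10, *in vivo* TECs for 9 and D3 organoids for 3, and the lowest was 2D culture for 16. The same was not counted over all genes, so these counts describe the members only.

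A list of 48 genes for enzymes, chaperones, proteinases, cross-linkers and receptors of collagen, of which 41 were tested, gave the setting of these changes. Relative to *in vivo*, 19 were called higher and 7 lower in 2D culture, 11 were called higher and 11 lower at D3 and 12 were called higher and 9 lower at D7, against 19.9% and 21.7%, 14.1% and 14% and 18% and 16.8% of all genes. From D3 to D7 5 were called higher and 7 lower, against 10.9% and 9.91%. *Plod2*, *P4ha1*, *Fkbp10*, *Itgb1* and *Ddr1* are named outside the rule for this list and were chosen after their values were seen. Of 14 hydroxylases and glycosyltransferases, 6 were called higher and 3 lower in 2D culture, against 19.9% and 21.7% of all genes. *Plod2*, the lysyl hydroxylase of telopeptides, was at 19.4 and 24.1 CPM *in vivo*, 422 and 455 in 2D culture, 66 and 46 at D3 and 43.1 and 41.8 at D7 (log2 fold change 4.32 ± 0.21, adjusted p = 4.31e-11 in 2D culture). *P4ha2*, a catalytic subunit of prolyl 4-hydroxylase, rose in 2D culture (log2 fold change 3.49 ± 0.30, adjusted p = 4.82e-08). It was lower than *in vivo* at D3 (log2 fold change -1.51 ± 0.37, adjusted p = 0.00492) and D7 (log2 fold change -1.38 ± 0.36, adjusted p = 0.0073). *P4ha3*, another such subunit, was at 109 and 111 CPM *in vivo*, 13.8 and 8.15 in 2D culture, 31.4 and 37.8 at D3 and 37 and 39.2 at D7. It was below *in vivo* in every culture (log2 fold change -3.32 ± 0.24, adjusted p = 6.17e-09 in 2D culture). The 3 catalytic subunits of this enzyme did not share a direction in 2D culture, where *P4ha1* was not called (log2 fold change 0.17 ± 0.23, adjusted p = 0.571).

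Of 5 cross-linking enzymes tested, 4 were called higher and 0 lower in 2D culture, against 19.9% and 21.7% of all genes. *Lox*, the lysyl oxidase of fibrils, was at 0.346 and 5.61 CPM *in vivo*, 192 and 227 in 2D culture, 6.75 and 8.51 at D3 and 6.31 and 5.72 at D7 (log2 fold change 6.03 ± 0.44, adjusted p = 6.68e-09 in 2D culture). The organoids gave no call for it relative to *in vivo*. *Loxl2*, an oxidase that also acts on type IV collagen, was at 10.7 and 19.1 CPM *in vivo*, 42.5 and 52.4 in 2D culture, 2.53 and 1.4 at D3 and 0.247 and 0.789 at D7. It rose in 2D culture (log2 fold change 1.65 ± 0.32, adjusted p = 0.000485) and fell in organoids (log2 fold change -4.97 ± 0.52, adjusted p = 1.29e-06 at D7). Among the propeptide proteinases and their enhancers, *Adamts2*, which trims the amino end of fibrillar procollagen, was at 61.8 and 61.2 CPM *in vivo*, 0.181 and 0.555 in 2D culture, 7.93 and 8.23 at D3 and 18.2 and 21.9 at D7 (log2 fold change -7.32 ± 0.40, adjusted p = 2.06e-10 in 2D culture). *Pcolce2*, an enhancer of carboxyl-end trimming, was at 78.6 and 71.3 CPM *in vivo*, 22.5 and 24.3 in 2D culture, 6.58 and 4.33 at D3 and 0.99 and 0.789 at D7 (log2 fold change -6.34 ± 0.34, adjusted p = 3.81e-10 at D7). *Tll1*, a carboxyl-end proteinase, was counted in both 2D libraries at 25.6 and 24.4 CPM and had no count *in vivo* or at D7 (at least 108-fold higher, adjusted p = 9.37e-07). Of the 8 folding and secretion genes, 3 were called higher and 2 lower in 2D culture relative to *in vivo*. At D3 2 were called higher and 3 lower, and at D7 1 higher and 2 lower. The shares of all genes were 19.9% and 21.7%, 14.1% and 14% and 18% and 16.8%. The 1 called higher at D7 was *Fkbp10*, an endoplasmic reticulum prolyl isomerase for procollagen. It rose in all 3 cultures, most at D7 (log2 fold change 2.40 ± 0.35, adjusted p = 4.48e-05).

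Of 7 collagen receptors tested, 4 were called higher and 0 lower in 2D culture, 3 were called higher and 1 lower at D3 and 5 were called higher and 0 lower at D7, relative to *in vivo*, against 19.9% and 21.7%, 14.1% and 14% and 18% and 16.8% of all genes. *Itga1*, the integrin subunit that prefers type IV collagen, was at 3.46 and 3.79 CPM *in vivo*, 9.25 and 9.26 in 2D culture, 51.1 and 66.6 at D3 and 86.9 and 106 at D7. The 4 groups did not overlap. The rise was called in 2D culture (log2 fold change 1.34 ± 0.29, adjusted p = 0.00121), at D3 (log2 fold change 4.01 ± 0.26, adjusted p = 2.78e-09) and at D7 (log2 fold change 4.71 ± 0.26, adjusted p = 5.26e-10). *Itga2*, the subunit that prefers fibrillar collagen, was instead highest in 2D culture, at 19 and 25.9 CPM against 0 to 4.34 in the other 6 libraries (log2 fold change 5.81 ± 0.85, adjusted p = 3.17e-05, 2D culture over *in vivo*). Their common partner *Itgb1* was at 169 and 147 CPM *in vivo*, 884 and 865 in 2D culture, 299.8 and 292 at D3 and 259 and 217 at D7 (log2 fold change 2.47 ± 0.15, adjusted p = 1.05e-09 in 2D culture). *Adgrg6*, an adhesion receptor that binds type IV collagen, was at 2.77 and 4.21 CPM *in vivo*, 93.4 and 115 in 2D culture, 5.4 and 4.05 at D3 and 12 and 15 at D7 (log2 fold change 4.87 ± 0.29, adjusted p = 4.34e-10 in 2D culture). *Mrc2*, an endocytic receptor for collagen, was highest at D3, at 15.2 and 13 CPM (log2 fold change 4.32 ± 0.69, adjusted p = 0.000134). *Ddr1*, the epithelial collagen receptor kinase, stayed at 177 to 223 CPM over the 8 libraries and was called in no comparison.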

How the data were processed

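TECs of mouse thymi late in gestation were profiled by bulk 3′ RNA sequencing (QuantSeq) in 4 groups of 2 libraries. The authors aligned reads with STAR 2.7.0e to GRCm39 and deposited a table of raw counts per gene for each library, which the paper analysed with limma-voom. Their form is that of STAR's own gene counts, but the counting tool, its strand setting and the annotation release are not given in the sources used here, and the submitters' processing notes also name R 4.1.2 and edgeR. The unit used here is these deposited counts, of 5084715 to 7612532 reads per library. Each QuantSeq read marks the end of a transcript, so counts are not scaled by length and miss alternative ends.

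Collagen genes and the sequences shown were identified by gene ID in GENCODE M39, which held 56236 of the 56923 IDs. The members and the lists of related and marker genes were chosen with earlier results of these data known. Genes that reached 1 CPM in 3 or more libraries were scaled by TMM and tested in 1 fit of all 8 libraries with edgeR's quasi-likelihood test (edgeR 4.0.16, R 4.3.3), with Benjamini-Hochberg adjustment over 14504 genes, called at 0.05. Values of every library are given for members with a mean of at least 10 CPM in a group and for every tested type IV, fibrillar and transmembrane chain, and other members are given by their range, except *Col6a2*, *Col9a2* and *Col26a1*, and in part *Col5a3*, *Col6a5* and *Col15a1*, which were chosen after their values were seen. Of 48 related genes, those with at least 10 CPM in a group and a called fold change among the 3 largest in a direction could be named. The fit was tested on simulated data.

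Alternatives were DESeq2's size factors and Wald test (DESeq2 1.42.0), limma-voom (limma 3.58.1), library size alone, no filter, a filter of a mean of at least 10 CPM, a replicate block, a fit without D3 and leaving out each library. Replicates are labelled as biological, and those of a group differed by more than sampling noise (chi-square per degree of freedom 6.82 to 8.70). An exact permutation test of 2 against 2 libraries cannot go below p = 0.333, so none was used.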

Additional observations from a re-analysis of the deposited data

How the results depend on the processing

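Over 198 pairs of a member and a comparison, 120 were called. Of these calls, 105 held in every alternative that tested the pair, apart from leaving out single libraries. Those alternatives include the fit without D3 and the filter on a mean of at least 10 CPM, which did not test every pair. Under these alternatives 9 uncalled pairs became called, and 34 calls were lost when a library was left out. No pair that was called, in the main fit or an alternative, reversed its direction. Uncalled pairs could change sign, as *Col15a1* did at D3 relative to 2D culture (log2 fold change from -2.48 to 3.63 over the settings). A filter on a mean of at least 10 CPM left 17 members to test and fewer calls by its own construction, with 12 in 2D culture and 14 at D3 relative to *in vivo*, 11 at D3 and 14 at D7 relative to 2D culture, and 7 from D3 to D7. With 1 library left out at a time the calls numbered 17 to 20 in 2D culture, 15 to 22 at D3 and 11 to 19 at D7 relative to *in vivo*, 19 to 20 at D3 and 21 to 26 at D7 relative to 2D culture, and 10 to 14 from D3 to D7. The lowest of these counts came without the first D3 library (15 at D3 relative to *in vivo*) and without the second D7 library (11 at D7 relative to *in vivo*), in place of 23 and 18. The cause was not tested.

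Replicate numbers were not taken as pairs, since the labels do not say that they link libraries across groups. The log difference between the first and second library was correlated between groups over 9018 genes. These correlations were positive for every pair of groups, from 0.0795 to 0.219, and do not settle whether same-numbered libraries shared a source. With the replicate number as a block the calls were 20 in 2D culture, 24 at D3 and 19 at D7 relative to *in vivo*, 20 at D3 and 26 at D7 relative to 2D culture, and 13 from D3 to D7. With 2 libraries per group a lone library is assumed to vary like the other groups when its partner is left out. Members under 10 CPM rest on few counts, so that small differences among them were not detectable at this depth.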
